A study of Mus musculus with 37 samples.

Results

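Cathepsins are the proteases of the lysosome, and cystatins are proteins that block the cysteine proteases among them. The genes described here are the cysteine cathepsins Ctsb, Ctsc, Ctsh, Ctsk, Ctsl, Ctss and Ctsz, the aspartic cathepsin Ctsd, and the cystatins Cstb and Cst3. They were taken by symbol, without regard to their values, and all 10 were found among the 23947 genes of the deposited table. They were followed over 37 single cells, labelled as macrophages of adipose tissue. The donors were male C57BL/6J mice, the depot was epididymal white fat, and the feed was a high-fat diet with 60% of its energy from fat, 20% from carbohydrate and 20% from protein. The labels give the mice as age-matched without stating the age, and tie no cell to an animal. Collagenase digestion took 30 min, and stromal cells were then sorted. The cells therefore form 1 group and count as 1 sample, every value below describes these cells, and no p-value is given.

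Cathepsins are made as inactive precursors, carried to the lysosome and activated there by cleavage in the acid interior. Macrophages use them to break down engulfed proteins and dead cells, and to trim the invariant chain and antigens before peptides are loaded on MHC class II. Cystatin C, encoded by Cst3, is secreted, while stefin B, encoded by Cstb, stays mainly in the cytosol, where it can meet cathepsins that leak from lysosomes.

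Values are FPKM, which are scaled to transcript length, so levels of different genes can be set side by side. Detection means a value of at least 1 FPKM. Fragment counts per cell are not known here. The FPKM sum per cell ran from 225528 to 1841666 with a median of 326230, and was highest in cells 2, 24 and 26 (1115906, 1841666 and 1217865). The number of genes detected per cell ran from 1224 to 3204. Of 14 macrophage genes in the table, at least 8 were detected in every cell. Cells 7 and 27 stood apart, each with 7 of 8 fibroblast genes detected against at most 1 in the other 35 cells. Their macrophage genes summed to 327 and 139 FPKM, in that order, while the sums of the other 35 cells ran from 8504 to 47070 FPKM. No cell held 3 genes of any of the 10 other cell type lists. Values without cells 7 and 27, or without the 3 cells with the highest sums, are given where they differ most.

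The start regions of 4 members are shown because they hold, or lack, short motifs of lysosomal and myeloid transcription factors. They come from RefSeq on build GRCm38.p6, which is not the build mm9 of the expression table. Of the 10 members, 7 matched a window of 250 bases before to 50 bases after the start. The letters searched on both strands were CACGTG, the E-box core bound by TFEB and TFE3, and GAGGAAGT, a site of the myeloid factor PU.1. A longer motif around the same core, taken from the CLEAR element of lysosomal genes, was searched too, but only as 1 exact string. It matched none of the 7 windows, against 0.326% of all windows. Strings that differ by a letter were not counted. At so low a share, no match in 7 windows was likely for any genes. The search therefore cannot tell whether these windows lack a CLEAR element. The motifs were chosen with the sequences in view. Among 32851 windows of the same length, CACGTG was in 7.15% and GAGGAAGT in 3.20%. Ctsd held CACGTG at 2 places, with first bases at -245 and -98 from the start, and Ctsl held it at 1 place. Ctsc and Ctss each held GAGGAAGT once, on the reverse strand, with first bases at -151 and -2, so in Ctss the match spans the start. The Ctsc region printed, of 189 bases, stops before that start, at the outer end of the RefSeq gene. The Ctss region printed, of 260 bases, runs past the start to hold the whole match. The sequences run 5′ to 3′ on the strand of the gene, with matches in capitals: CACGTG in Ctsd, and the reverse complement of GAGGAAGT in Ctss and Ctsc. Ctsk holds neither and is shown as the neighbour of Ctss. The regions are chr7:142387828-142388077 on the minus strand for Ctsd, and on the plus strand chr3:95526536-95526795 for Ctss, chr7:88277835-88278023 for Ctsc and chr3:95498960-95499209 for Ctsk.
Ctsd: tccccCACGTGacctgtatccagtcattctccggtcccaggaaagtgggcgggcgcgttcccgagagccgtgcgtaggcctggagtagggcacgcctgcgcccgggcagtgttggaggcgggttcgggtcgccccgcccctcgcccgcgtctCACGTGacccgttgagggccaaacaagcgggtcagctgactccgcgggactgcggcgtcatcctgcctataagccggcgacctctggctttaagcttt
Ctss: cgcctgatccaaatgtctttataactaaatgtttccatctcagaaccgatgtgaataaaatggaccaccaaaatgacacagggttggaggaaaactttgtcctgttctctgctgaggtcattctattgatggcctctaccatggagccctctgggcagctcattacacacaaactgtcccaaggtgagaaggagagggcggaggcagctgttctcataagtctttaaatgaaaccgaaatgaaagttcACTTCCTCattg
Ctsc: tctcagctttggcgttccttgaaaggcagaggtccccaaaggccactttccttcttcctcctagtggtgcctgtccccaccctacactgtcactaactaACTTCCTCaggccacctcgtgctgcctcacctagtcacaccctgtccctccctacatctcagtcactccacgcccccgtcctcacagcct
Ctsk: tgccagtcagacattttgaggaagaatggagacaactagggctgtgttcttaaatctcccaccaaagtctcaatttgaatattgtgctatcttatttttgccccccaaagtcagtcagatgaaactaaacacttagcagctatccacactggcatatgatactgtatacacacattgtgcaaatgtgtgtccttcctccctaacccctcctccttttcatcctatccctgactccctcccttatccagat
Ctsk and Ctss are neighbours on chromosome 3, with a single predicted gene, Gm40096, between them in RefSeq. Ctsb, Ctss and Ctsz each overlap 1 other gene there (Fdft1, Hmgb1-ps5 and Nelfcd). The labels do not say whether reads were assigned by strand, so reads of such partners cannot be told apart.

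The 10 genes divided into 3 found in every cell, 6 found in most cells but at widely different levels, and 1 found in few. Cst3, Ctss and Ctsb were detected in all 37 cells (100%, exact Clopper-Pearson 95% interval 90.5% to 100%), a property shared by 0.359% of all genes in the table. These intervals cover the sampling of cells only. Cstb was detected in 35 cells (94.6%, 81.8% to 99.3%), Ctsc and Ctsz in 32 each (86.5%, 71.2% to 95.5%), Ctsd and Ctsl in 30 each (81.1%, 64.8% to 92.0%) and Ctsh in 29 (78.4%, 61.8% to 90.2%). Ctsk was detected in 4 cells (10.8%, 3.03% to 25.4%) and listed at 0 in 29. A median of 100 FPKM or more was reached by 6 members (Cst3, Ctss, Ctsb, Cstb, Ctsd and Ctsz), and by 0.785% of all genes. The number was 9 after rescaling, which raises most values, and 7 without cells 7 and 27 or without the 3 cells with the highest sums. Together the 10 genes made up 0.495% to 5.85% of a cell's FPKM sum, with a median of 2.06%, and each cell held 6 to 9 of them. Counted only above 3% of its own mean, a level chosen after seeing the data, Cst3 was still found in all 37 cells, Ctsb in 36 and Ctss in 33, but Cstb in 25, Ctsd in 24 and Ctsl in 23.

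**Figure D1:**
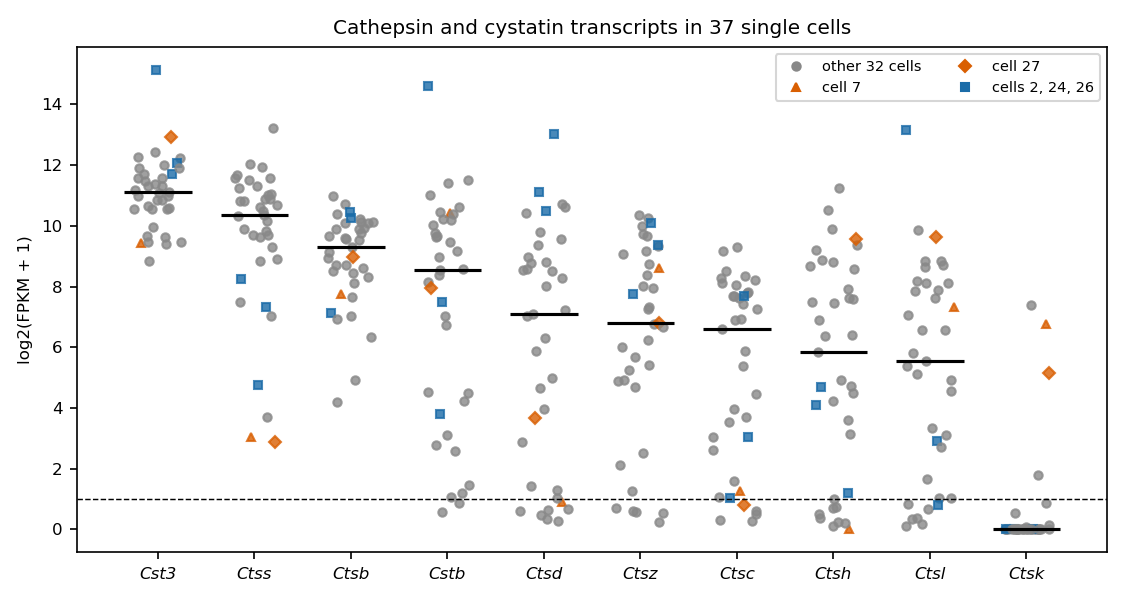
Levels of the 10 genes as log2(FPKM + 1) on the vertical axis in each of 37 cells, with genes ordered by median (black bars) and the dashed line at 1 FPKM. Cst3 lies at 461.5 FPKM or more in every cell, while Ctsd, Ctsz, Ctsc, Ctsh and Ctsl spread from under 1 FPKM to maxima of 625 FPKM or more.

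Cst3, the secreted inhibitor cystatin C, was the most abundant and the most even member. Its values ran from 461.5 FPKM in cell 23 to 35897 FPKM in cell 26, with a median of 2205 FPKM, rank 13 among the medians of all genes. The quartiles, 1510 and 3369 FPKM, were 2.23-fold apart. Cell 26 stood well above the next value, 7817 FPKM in cell 27. Cell 26 is also among the cells with a high FPKM sum. When each cell was rescaled to the same sum of 1000000, cell 26 was still highest for Cst3 at 29475, followed by cell 31 at 18162. Cells 7 and 27, with fibroblast genes, differed in Cst3, at 685.5 and 7817 FPKM.

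Cstb, the cytosolic inhibitor stefin B, was much less even. Its lowest value was 0.485 FPKM in cell 0, its median 368 FPKM and its highest 24870 FPKM in cell 26, with quartiles of 17.8 and 1157 FPKM. The next highest cell, cell 6, had 2890.5 FPKM. Cells with little Cstb and cells with much of it were both common. Cst3 was above Cstb in 30 cells. The 7 cells in which Cstb was higher (6, 7, 16, 21, 28, 32 and 36) differed by at most 1.01 on the log2 scale, while cell 12 held Cst3 at 5581 FPKM and Cstb at 1.30 FPKM. Across the 37 cells the cystatins had a rho of -0.16. It was -0.41 in cells 0 to 19 and 0.07 in cells 20 to 36, a division explained below.

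Ctss, an endopeptidase that stays active at neutral pH and cleaves the invariant chain, was the leading cathepsin. Its lowest value was 6.42 FPKM in cell 27, its median 1311 FPKM, rank 19 among all genes, and its highest 9470 FPKM in cell 9. It was the highest of the 7 cysteine cathepsins in 27 cells. Only 4 cells were under 100 FPKM. These were cells 27 and 7 (6.42 and 7.31 FPKM), which hold fibroblast genes, and cells 8 and 26 (12.1 and 26.04 FPKM), which do not. The lowest value in the other 35 cells was thus 12.1 FPKM, and their median was 1425 FPKM.

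Ctsb, which acts both inside proteins and at their carboxyl end, was the next cathepsin in level. Its values ran from 17.2 FPKM in cell 32 over a median of 628.5 FPKM to 2013 FPKM in cell 6. The quartiles were 3.403-fold apart, close to the 4.34-fold of Ctss. Cells 7 and 27 held it at 217 and 503.5 FPKM, within the range of the others. It was the leading member in cell 17.

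Ctsd, the aspartic protease of the lysosome and so not a target of the cystatins, was spread over the whole range from nearly missing to abundant. It ran from 0.210 FPKM in cell 31 to 8405 FPKM in cell 26 with a median of 135 FPKM. In 7 cells it was under 1 FPKM, in 10 between 1 and 100 FPKM, and in 20 above that. Its quartiles, 1.71 and 502 FPKM, were 293-fold apart. After rescaling every cell to the same sum, cell 26 was still highest at 6901, with cell 3 next at 5026.

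Ctsl, an endopeptidase that also cleaves the invariant chain in some tissues, had a median of 45.9 FPKM. It was at 0.0704 FPKM in cell 8 and at 9191 FPKM in cell 24, where it made up 49.5% of the 10 genes together. The next cell, cell 35, held 929 FPKM. Cell 24 has the highest FPKM sum of all, and after rescaling it was at 4991 against 2625 in cell 35. Cell 27, with fibroblast genes, held 784 FPKM and was above 33 of the 35 other cells.

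The exopeptidases were present at middling levels and uneven. Ctsz, which removes residues from the carboxyl end, ran from 0.185 FPKM in cell 31 over a median of 109 FPKM to 1321 FPKM in cell 16. Ctsc, the dipeptidyl peptidase that activates granule serine proteases, ran from 0.210 FPKM in cell 4 over a median of 96.8 FPKM to 625 FPKM in cell 30. Its quartiles of 5.08 and 221 FPKM were 43.5-fold apart. Ctsh, mainly an aminopeptidase, was listed at 0 in cell 7, had a median of 56.6 FPKM and reached 2426 FPKM in cell 15. In cell 27 it stood at 748 FPKM, so the cells with fibroblast genes were at opposite ends for Ctsh.

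Ctsk, the collagen-degrading cathepsin best known from osteoclasts, was detected in cells 13, 7, 27 and 14, at 168.5, 109, 34.4 and 2.44 FPKM. Of these, cells 7 and 27 are the ones with fibroblast genes, and 2 of the 35 other cells were detected. Ctss, its neighbour on the chromosome, was at 825 FPKM in cell 13 and 3283 FPKM in cell 14, but under 8 FPKM in cells 7 and 27. Fibroblast transcripts and Ctsk thus moved together in 2 of the 4 cells, and their part in the Ctsk values was not tested.

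In the order of medians, neighbouring genes were not separated beyond the spread between cells, except at the end. Cst3 was above Ctss in 25 of 37 cells, Ctss above Ctsb in 28, and Ctsb above Cstb in 19. Cstb was above Ctsd in 24, Ctsd above Ctsz in 20, Ctsz above Ctsc in 19, Ctsc above Ctsh in 16 and Ctsh above Ctsl in 21. For all of these the mean difference within cells was smaller than its SD over cells; for Cst3 against Ctss it was 1.52 on the log2 scale with an SD of 3.03. Ctsl was above Ctsk in 37 of 37 cells, by 4.61 with an SD of 3.41.

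**Figure D2:**
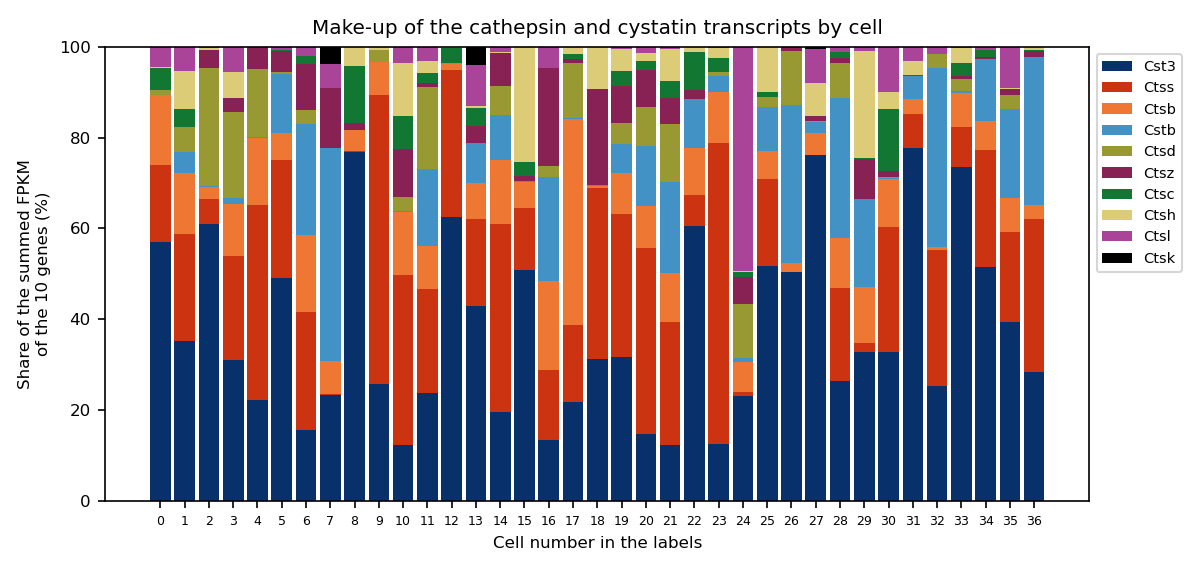
Share of each gene in the summed FPKM of the 10 genes (vertical axis, in percent) for each cell, with cells in the order of their labels. Cst3 leads in 21 cells, Ctss in 10, Cstb in 4, and Ctsb and Ctsl in 1 each.

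The make-up of the set changed from cell to cell in a way that scaling cannot alter, since shares are taken within a cell. Cst3 and Ctss together held 23.5% to 94.96% of the 10 genes, with a median of 62.0%. Cst3 led in 21 cells and reached 77.8% in cell 31. Ctss led in 10 cells (4, 6, 9, 10, 14, 18, 20, 21, 23 and 36) and reached 66.4% in cell 23. Cstb led in cells 7, 16, 28 and 32, with 46.9% in cell 7. Among the 7 cysteine cathepsins, Ctss gave way to Ctsb in cells 17, 22 and 26, to Ctsh in cells 15 and 29, to Ctsl in cells 24 and 27, to Ctsz in cells 7 and 16, and to Ctsc in cell 8.

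Transcripts of cysteine cathepsins and of cystatins were near balance in the middle cell but differed widely between cells. The log2 ratio of the 7 summed cysteine cathepsins to Cstb plus Cst3 had a median of -0.10, quartiles of -0.91 and 1.02, and was above 0 in 17 of 37 cells. It was highest in cell 10, at 2.75, where the cathepsins summed to 6815 FPKM against 1009 FPKM of cystatins. It was lowest in cell 26, at -4.85, with 2107 against 60767 FPKM. Against Cst3 alone the median was 0.46, so the side of 0 on which the middle cell falls rests on counting Cstb. A transcript ratio says nothing of the amounts or the places of the proteins.

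**Figure D3:**
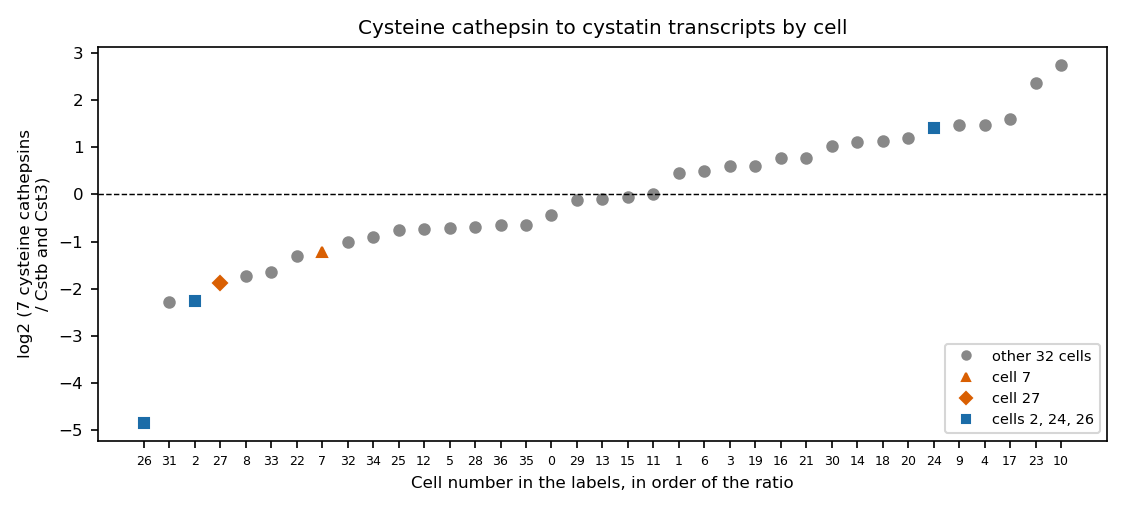
Log2 ratio of summed cysteine cathepsin FPKM to Cstb plus Cst3 (vertical axis) for the 37 cells in ascending order, with the dashed line at equality. Cell 26 lies apart at -4.85 and the remaining cells run from -2.28 to 2.75.

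Over all 37 cells the closest pair among the 10 genes was Ctsb and Ctsd. These major lysosomal proteases had a Spearman rho of 0.69 and a Pearson r of 0.58 over 37 cells. Over all cells each was the gene most like the other among the 964 other genes detected in at least 19 cells. That place was lost after rescaling, where Smpdl3a stood at 0.68 with both against 0.59 for the pair, and in cells 0 to 19, where Smpdl3a was at 0.74 with Ctsb and 0.68 with Ctsd. The Spearman correlation was 0.68 without cells 7 and 27, 0.75 without the 3 cells with the highest sums, and 0.59 after rescaling every cell to the same sum. It was 0.66 with the number of genes detected removed from the ranks. In cells 0 to 19 it was 0.56 and in cells 20 to 36 it was 0.70; this division comes from an earlier search of these data for library batches and is not in the labels. In neither part was it the closest pair: Ctsl with Cstb was at 0.58 in cells 0 to 19, and Ctsb with Ctsz at 0.87 in cells 20 to 36. Cells share a library protocol and their depth is not known, so these and the correlations below are descriptions. In the plot of gene pairs, exceptions lie on both sides. Cell 29 had 762 FPKM of Ctsb with 1.03 FPKM of Ctsd, and cell 32 had 78.5 FPKM of Ctsd at the lowest Ctsb of all.

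**Figure D4:**
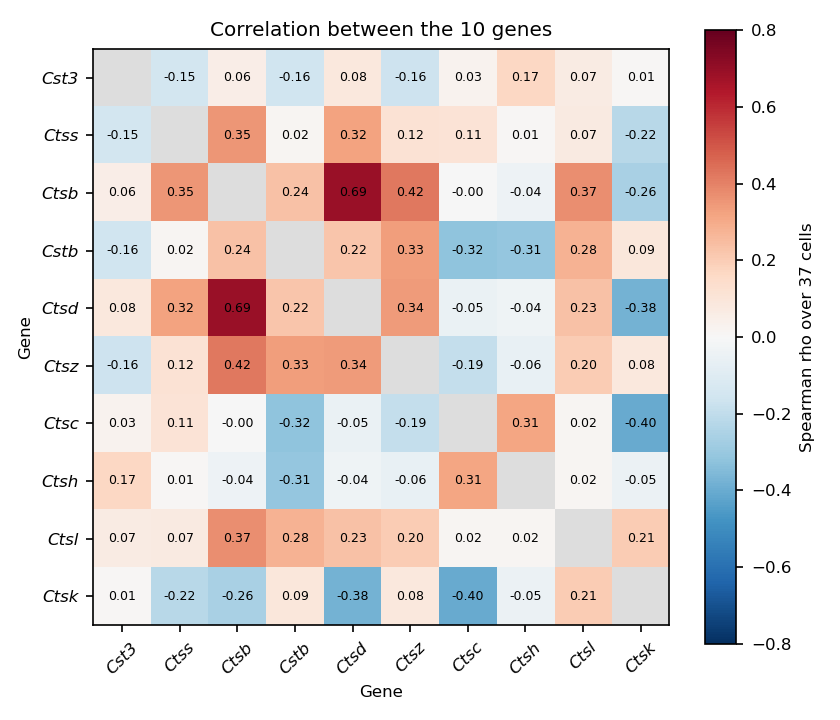
Spearman rho over 37 cells between each pair of the 10 genes, by colour and printed value, with genes ordered by median level on both axes. Ctsb and Ctsd stand out at 0.69, and Ctsc and Cstb lie at -0.32.

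The 10 genes did not vary as 1 block. The mean rho of the 45 pairs was 0.06 with an SD of 0.23 over pairs, against 0.03 for all pairs of the 4694 genes detected in at least 5 cells. Ctsk was detected in fewer cells than that and most of its ranks are ties, so its correlations carry little; without it the mean of 36 pairs was 0.10. In cells 0 to 19 the mean of the 45 pairs was 0.03, and in cells 20 to 36 it was 0.10. Taking the number of genes detected out of the ranks gave 0.03. The mean for all gene pairs was not computed in these settings, so these 3 values cannot be set against a background. Among those 36 pairs, 8 (22.2%) had a rho of 0.3 or more, against 5.97% of all pairs of genes detected in at least 5 cells and 6.91% of pairs detected in at least 19 cells. A rho of -0.3 or less was found in 2 of the 36 (5.56%), against 2.81% and 3.12%. The pairs at 0.3 or more were few in kind. Of the 8, 4 held Ctsb, with Ctsd, Ctsz (0.42), Ctsl (0.37) and Ctss (0.35). The others were Ctsd with Ctsz (0.34) and Ctss (0.32), Ctsz with Cstb (0.33), and Ctsc with Ctsh (0.31). Several of these were uneven across the cells. Ctsb with Ctsz was 0.22 in cells 0 to 19 and 0.87 in cells 20 to 36, Ctsd with Ctsz was -0.05 and 0.63, and Ctsb with Ctss was 0.47 and 0.02. Ctsd with Ctss was 0.26 without cells 7 and 27 and 0.59 without the 3 cells with the highest sums.

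The lowest values of rho were those of Ctsc with Ctsk (-0.40), Ctsd with Ctsk (-0.38) and Ctsc with Cstb (-0.32). Ctsc and Cstb had a rho of -0.27 and -0.40 in the parts of the cell order and of -0.23 after rescaling. Ctsh with Cstb stood at -0.31. Over all cells, Cst3 had no rho above 0.17 with any other member. Most of its values differed in sign between cells 0 to 19 and cells 20 to 36. In that order, rho was -0.61 and 0.27 with Ctsz, and -0.35 and 0.40 with Ctsb. It was 0.36 and -0.36 with Ctsc, and 0.15 and -0.52 with Ctss. With Ctsd and Ctsh the sign was the same in both parts. The cause was not tested.

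The members also varied with the number of genes detected in a cell, which differs with depth. That rho was 0.51 for Ctsl, 0.46 for Cstb, 0.42 for Ctsd and 0.40 for Ctsz, but 0.05 for Cst3, -0.14 for Ctss and -0.16 for Ctsc. With the FPKM sum it was 0.36 for Ctsd and -0.35 for Ctsc. The part of depth in the levels of these genes was not tested.

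**Figure D5:**
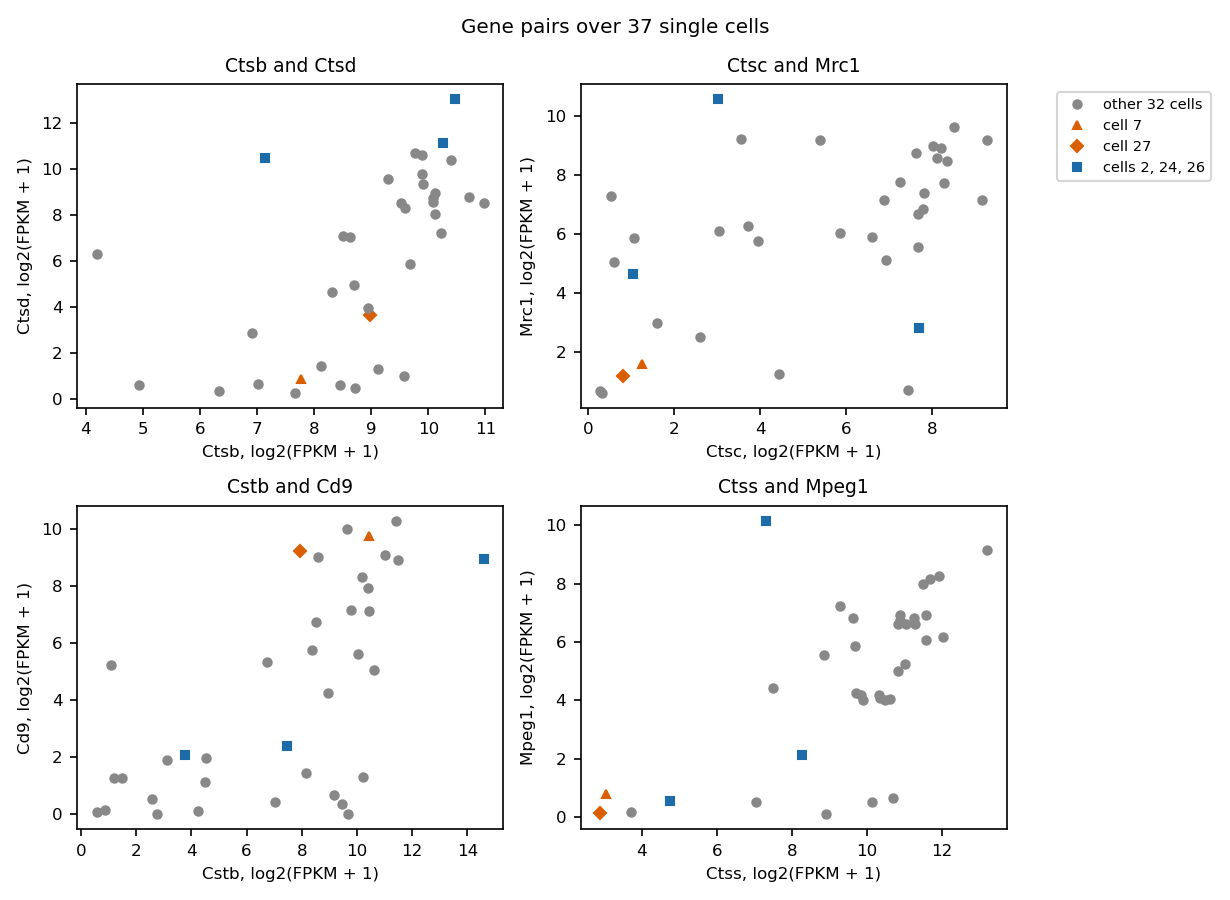
Each panel plots a pair of genes as log2(FPKM + 1) on both axes, 1 point per cell: Ctsb with Ctsd, Ctsc with Mrc1, Cstb with Cd9 and Ctss with Mpeg1. The Spearman correlation over the 37 cells is 0.69, 0.56, 0.64 and 0.63 in that order, and cells 7 and 27 lie at the low end of Ctss and Ctsc.

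The genes most like each member over the 37 cells differed between members. They were taken as the 3 highest values of rho among genes detected in at least 19 cells. Ctsb and Ctsd shared theirs. Besides each other they had Smpdl3a, a phosphodiesterase (rho 0.64 and 0.67), and Cd300a, an inhibitory receptor of myeloid cells (0.57 and 0.62). Smpdl3a and Cd300a had medians of 1.28 and 2.84 FPKM and were detected in 20 cells each, so many of their ranks order values under 1 FPKM. The same holds for Plek, Alyref, Tgfbi, Ncor1, Poldip3, Spop and Impact, named below. Their medians ran from 1.27 FPKM (Spop) to 2.195 FPKM (Tgfbi), with detection in 19 to 22 cells.

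Ctsc was most like Mrc1, the mannose receptor CD206 of resident macrophages. Mrc1 had a median of 76.0 FPKM and rho with Ctsc was 0.56. It was 0.51 without cells 7 and 27, 0.50 and 0.60 in the parts of the cell order, 0.65 after rescaling and 0.56 with the number of genes detected removed. Plek, a substrate of protein kinase C in blood cells (0.54), and Sepp1, the selenium carrier (0.48), followed. Cstb ran the other way with Mrc1, at -0.40.

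Cstb was most like Alyref, an mRNA export factor (0.69), Cd9, the tetraspanin (0.64), and Twf1, an actin-binding protein (0.60). For Cstb and Cd9, rho was 0.65 without cells 7 and 27, 0.69 and 0.62 in the parts of the cell order and 0.61 after rescaling. It was 0.53 with the number of genes detected removed. Cd9 was also at 0.41 with Ctsl and 0.36 with Ctsz, and at -0.38 with Ctsc. With the number of genes detected removed, these values were 0.21, 0.21 and -0.35.

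Ctss was most like Mpeg1, the pore-forming perforin-2 of macrophages (0.63), Gm2a, the activator of ganglioside breakdown (0.62), and Atp6v0e, a subunit of the lysosomal proton pump (0.51). Without cells 7 and 27, which are lowest for Ctss, the values were 0.58, 0.57 and 0.52. Ctsh was most like H2-DMa, a chain of the peptide exchange factor of MHC class II (0.60), then Tgfbi, a matrix protein (0.49), and Vim, the intermediate filament vimentin (0.45). Ctsl was most like Cd63, a tetraspanin of late endosomes (0.56), Rnasek (0.55) and Ncor1, a transcriptional corepressor (0.53). With the number of genes detected removed, the values for Ctsl were 0.47, 0.44 and 0.36. Without cells 7 and 27 they were 0.53, 0.53 and 0.49, and none of the 3 was among the closest.

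Ctsz was most like Poldip3 (0.56), Capzb, a cap of actin filaments (0.53), and Spop, an adaptor of a ubiquitin ligase (0.53). Cst3 was most like Apobec1, an RNA-editing enzyme (0.53), Impact (0.50) and Csf1r, the receptor for macrophage colony-stimulating factor (0.46). For Ctsk the 3 were S100a11 (0.57), Mrfap1 (0.52) and Cd9 (0.51), which rest on the few cells above 0. Without cells 7 and 27 these values were 0.49, 0.41 and 0.40, and none of the 3 genes was among the closest.

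Genes of the antigen presentation pathway, which cathepsins serve, differed in sign between members over all 37 cells. The list held Cd74, whose product is the invariant chain, H2-Aa, H2-Ab1 and H2-Eb1 of the peptide receptors, and H2-DMa and H2-DMb1 of the exchange factor. All 6 were detected in at least 19 cells. The Spearman correlation was below 0 for all 6 with Cstb (-0.53 to -0.16), Ctsl (-0.45 to -0.15), Ctsd (-0.42 to -0.08) and Ctsb (-0.34 to -0.08). Among the 964 other genes detected in at least 19 cells, the share below 0 was 27.9% for Cstb, 31.2% for Ctsl, 40.8% for Ctsd and 44.5% for Ctsb. It was above 0 for all 6 with Ctsh (0.09 to 0.60) and Ctsc (0.11 to 0.39), against 55.4% and 39.6% of those genes. For Ctss, the enzyme of this pathway in macrophages, it was above 0 for 4 of 6 (-0.10 to 0.33), and for 1 of 6 without cells 7 and 27. The share of other genes above 0 with Ctss was not computed, so nothing can be read from these counts about this pathway. Ctss and Cd74 had a rho of 0.08. With the number of genes detected removed, Cstb and Ctsl kept all 6 below 0, at medians of -0.20 and -0.14, while Ctsd had 4 of 6 below 0 and Ctsb 5 of 6. The signs also differed between parts of the cell order. In cells 20 to 36 Ctsb and Ctsd each had 4 of 6 below 0 and Ctsh 4 of 6 above 0, and in cells 0 to 19 Ctsl had 5 of 6 below 0 and Ctsc 5 of 6 above 0. Ctsc also had 5 of 6 above 0 without cells 7 and 27, and Ctsb 5 of 6 below 0 after rescaling. Cstb had all 6 below 0 in each of these settings. The shares of other genes given above are for all 37 cells with nothing removed. They were not computed for the other settings, so the counts there cannot be set against a background. The strongest single values were those of Cstb with H2-Aa (-0.53) and H2-Eb1 (-0.52), which became -0.37 and -0.35 with that number removed. The 6 genes are not independent of each other.

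Genes that deliver or mature the lysosomal proteases were led by Lgmn, the legumain that cleaves procathepsins. Its median was 293 FPKM, its range 2.33 to 3102 FPKM, and every cell had it. Grn, progranulin, had a median of 135 FPKM in 35 cells, Psap, the precursor of saposins, 40.5 FPKM in 31 cells, and Tpp1, a lysosomal tripeptidyl peptidase, 6.83 FPKM in 29 cells. Of the 13 genes, 9 were detected in at least 5 cells, compared with 4694 of 23947 over the whole table. Over the 7 genes of this list detected in at least 19 cells, rho ran from -0.01 to 0.56 for Ctsb and from -0.08 to 0.54 for Ctsd. Psap was highest for both and Tpp1 lowest. Lgmn was at 0.28 with Ctsb and 0.22 with Ctsd, but at -0.03 and -0.12 in cells 0 to 19. Ctsd was at 0.55 with Sort1, the sorting receptor sortilin, which was detected in 7 cells. Of the lysosomal transcription factor genes, Mitf was detected in 9 cells, Tfe3 in 8, Tfeb in 6 and Tfec in 1. Thus 3 of the 4 were detected in at least 5 cells, against the same 4694 of 23947. Their highest single values were 120 FPKM for Mitf, 371 for Tfe3, 388 for Tfeb and 21.3 for Tfec.

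Few of the other genes of both families were detected. Over the whole table, 58.3% of genes were detected in no cell and 51.6% were listed at 0 in all cells, so these counts are to be read against a high background. Of 15 other cathepsins, Ctsa, the serine carboxypeptidase that protects lysosomal sialidase, had a median of 17.05 FPKM and was detected in 29 cells. Ctsf and Ctso were detected in 4 cells each, and Cts8 stayed below 1 FPKM. The other 11 were listed at 0 in all cells: Ctse, Ctsg, Ctsw, Cts3, Cts6, Cts7, Ctsj, Ctsll3, Ctsm, Ctsq and Ctsr. Of 20 other cystatins and stefins in the table, Cst6 was detected in 1 cell, cell 7, at 12.95 FPKM. The other 19 were listed at 0, among them Cst7, the leukocyte cystatin F, the stefin A genes Stfa1, Stfa2, Stfa2l1 and Stfa3, and Ahsg, Fetub, Kng1, Kng2 and Hrg of plasma. Also at 0 were BC100530, BC117090, Cst8, Cst9, Cst10, Cst11, Cst12, Cst13 and Cstl1. Taking 3 cells as the limit that a count of 0 allows, 0 of 37 leaves room for a share of 8.11%. Near-identical copies, such as the stefin A genes, can share or lose reads.

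The cytosolic serpins, a family of protease inhibitors, were present in part. Whether they act on the cathepsins described here was not tested. Of 4 cytosolic serpins, Serpinb6a had a median of 65.5 FPKM and was detected in 26 cells, Serpinb8 in 8, Serpinb1a in 7 and Serpinb9 in 2. Of 7 serine proteases that Ctsc activates, Prtn3 was detected in 1 cell (141 FPKM in cell 35) and 6 in none, against the 58.3% of all genes given above. Elane, Ctsg, Gzma, Gzmb and Cma1 were listed at 0. Among the genes that accompany Ctsk in osteoclasts, Atp6v0d2, a proton pump subunit, was detected in 18 cells, Nfatc1 in 9 and Acp5 in 7, while Mmp9 stayed below 1 FPKM and Calcr and Ocstamp were listed at 0. Atp6v0d2 had a rho of 0.54 with Ctss and of 0.08 with Ctsk. Of the matrix genes whose products cathepsins can cleave, Fn1, fibronectin, was detected in 10 cells and Col1a2 in 4. Col1a1 and Col3a1 were detected only in cells 7 and 27, and Eln, elastin, was listed at 0.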

How the data were processed

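The authors deposited 1 table of FPKM for 23947 genes by 37 cells. STAR, Cuffnorm and build mm9 are named per the submitters' processing notes, without versions, annotation or settings. Sorted cells went through a Fluidigm C1 platform and Nextera XT library preparation, per the labels' protocols. FPKM sums differ between cells, so values rescaled to the same sum in every cell were an alternative. An exact 0 can be a failed estimate and is written as listed at 0. Counts and depth are not in the table, and no test was run. Values were taken as FPKM and log2(FPKM + 1), with detection at 1 FPKM. Spearman rho was computed over cells and was checked on simulated data with planted correlations. Cells with at least 3 of 8 fibroblast genes at 1 FPKM were marked. Named genes were the 10 members, the 3 genes most like each, the 4 highest medians of each list together with genes listed at 0, and the 5 highest and 3 lowest member pairs; other names were chosen after their values were seen. The members and gene lists were chosen with earlier results of these data known. The 3% level and the setting without the 3 highest sums were also chosen after seeing the data. Python 3.11.15, numpy 2.4.6, pandas 2.3.3 and scipy 1.17.1 were used. Start regions came from RefSeq tables.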

Additional observations from a re-analysis of the deposited data

How the results depend on the processing

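Of 29 alternatives to the summary results, 23 stayed within 1 SD of the main value or within 1.5 times a main count. That SD was 0.23 over single pairs for the mean rho and 1.49 over single cells for the median ratio. Such spreads are wide for a mean or a median, so staying within them says little. The 23 still include moves from 6 to 9 members with a median of 100 FPKM or more (rescaled, or over detected cells only). They also include a mean rho of the 45 pairs from 0.03 to 0.10 around 0.06. The number of members at the detection threshold in every cell was 3 at 1 FPKM, 7 at 0.1 FPKM and 1 at 3% of each gene's mean. The median log2 ratio of cysteine cathepsins to cystatins went from -0.10 to 0.46 with Cst3 as the only inhibitor and to 2.67 with Cstb as the only one; these settings leave part of the inhibitor out by construction. Of the 30 most alike genes, 12 were kept with Pearson r, 19 without cells 7 and 27, 20 after rescaling and 22 without the 3 cells with the highest sums, and 8 were kept in all 4 settings (Ctsd for Ctsb, Smpdl3a for Ctsd, Mrc1 for Ctsc, H2-DMa for Ctsh, Mpeg1 for Ctss, Capzb for Ctsz, Alyref for Cstb and Apobec1 for Cst3). Among 175 alternatives for single genes and pairs, 10 moved beyond the spread used. The Ctsd-Ctsz rho changed sign, from 0.34 to -0.054 in cells 0 to 19, and the cause was not tested. The spread was the exact interval for detection, the SD over cells for levels and the SD over pairs for rho. These spreads are wide too, so staying within them says little. No paired analysis was possible because the 37 cells form 1 group. With no animal named, no fragment count in the table and 37 cells, neither differences between animals nor counting error can be given, and a low share of cells cannot be told from low depth.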
